A study of Caenorhabditis elegans with 54 samples.

Results

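The genes described here are 9 Caenorhabditis elegans genes whose proteins work in the mutator foci or in the amplification of 22G-RNAs. They were chosen by name, for the known roles of their proteins, with earlier results of these data known, and no measured value enters the rule. They are mut-16 (B0379.3), mut-2 (K04F10.6, also named rde-3), mut-7 (ZK1098.8), mut-14 (C14C11.6), mut-15 (T01C3.8), rde-2 (F21C3.4), rde-8 (ZC477.5), rrf-1 (F26A3.8) and rde-12 (F58G11.2). All 9 were among the 46003 gene names of the larger set of libraries, and all 9 passed the filter on low counts in both assays. The series measured small RNAs of 18 to 30 nt and poly(A)-selected mRNA in day 1 adults, from 8000 animals per sample, with 3 libraries per strain and assay. Of its strains, 6 form a grid: deletions of eri-6[e-f] (allele cmp261), of sosi-1 (cmp262) and of both loci at once (sosi-1 eri-6[e-f], cmp263), each with and without mut-16(pk710). The strain that lacks both is called the double deletion below. The other strains are prg-1(n4357); hrde-1(tm1200) and prg-1(n4357); ergo-1(tm1860), measured in both assays, and the prg-1(n4357) and ergo-1(tm1860) single mutants, in small RNA alone. The 8 strains measured in both assays were grown at 20 °C and harvested at 64 h, and every one of them carries at least 1 mutation in a small RNA pathway or at the eri-6 and sosi-1 loci. The labels of the single mutants name 20 °C with 68 h and 25 °C with 48 h without saying which library had which. Neither wild type nor mut-16 alone was analysed here, so each effect of mut-16 below is an effect in a deletion background.

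In C. elegans, an Argonaute that carries a primary small RNA marks a target transcript, and RNA-dependent RNA polymerases then copy that transcript into many short antisense RNAs that start with G, the 22G-RNAs. In germ cells much of this copying takes place in mutator foci, condensates next to P granules at the nuclear envelope. MUT-16 is the scaffold that gathers the others there. MUT-15 and RDE-2 are further components of the foci, RDE-2 being a partner of MUT-7, which has an exonuclease domain. RDE-8 is an endoribonuclease that cleaves target transcripts, MUT-2 is a nucleotidyltransferase that adds untemplated UG repeats to the cleaved ends, and RRF-1 is the polymerase that copies such templates. MUT-14 and RDE-12 are DEAD-box RNA helicases. Transcripts of RNAi genes can themselves be templates for 22G-RNAs, so each gene has 2 readouts in these data, the level of its mRNA and the number of small RNAs assigned to it.

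Levels are given in CPM (counts scaled to library size) on the scale of edgeR's TMM normalisation, and they are compared between strains and never between genes, whose transcript lengths are not in the sources used here. A gene was called when edgeR's quasi-likelihood test gave a Benjamini-Hochberg adjusted p below 0.05 over all features tested and the level changed by 2-fold or more (1 on the log2 scale). The share of all features at an unadjusted p below 0.05 was not computed. The labels do not say that the 3 libraries of a strain came from separate cultures, so each p reflects the spread between such samples. For each gene that spread was estimated from all libraries of a fit together, although strains differed in it. Library totals ran from 8002988 to 42010626 counts for small RNA and from 13217989 to 93976553 for mRNA. The mRNA counts of sosi-1 were at 0 in all 12 libraries of the strains that lack it, but also at 0 to 3 counts in the eri-6[e-f] strain, which has the gene, so mRNA does not check that deletion there. In small RNA, sosi-1 had 0.0817 to 1.59 CPM of the library total in the strains that lack it and 76.3 or more in the others. ergo-1 mRNA lay between 2.97 and 4.51 CPM of the library total in prg-1; ergo-1 against 35.1 or more elsewhere. prg-1 mRNA (74.0 to 148.5) and hrde-1 mRNA (251 to 452.6) were not below all other strains in their mutants. The labels do not describe these lesions or that of mut-16(pk710), so such counts are no check of these alleles. Replicate 1 of the prg-1; hrde-1 small RNA libraries stood apart, with 19% of its counts on the name eri6.1, against 0.0587% and 0.0785% in the other two, and 2.88% on microRNAs against 0.163% and 0.202%. On the TMM scale, no call on the 9 genes changed when the scale and spread were fitted with that library set aside.

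The 9 genes were measured much more tightly in small RNA than in mRNA. Over the 8 strains, the coefficient of variation among the 3 libraries of a strain had a median of 2.92% in small RNA and of 15.6% in mRNA. The narrowest mRNA spread was in the double deletion with mut-16, with a median of 4.49%, yet the tests share an estimate of it across strains. The widest mRNA spread was in the eri-6[e-f] strain, with a median of 42.7% over the 9 genes and 72.5% for mut-7. There replicate 3 had the highest CPM of the 3 libraries for every one of the 9 genes. The share of all features highest in that library was not computed, so this may be a trait of the library. In mRNA the genes sat between percentiles 48.8 and 96.8 of the features tested. In small RNA mut-7, mut-14, rde-12 and rrf-1 sat at percentile 95.7 or above in every library, and rde-8 and mut-2 had the lowest medians, at percentiles 69.2 and 72.2. Salmon shares reads that fit several features and then gives fractional counts. The mRNA counts of rrf-1 were whole, within 0.0005, in 0 of 24 libraries and those of mut-14 in 4 of 24, against 17 to 24 of 24 for the other genes, so part of the reads behind rrf-1 and mut-14 could not be told apart from those of another feature. In small RNA, counts were whole in 0 of 30 libraries for mut-16, mut-7, mut-14 and rrf-1. For the other genes they were whole in 2 (rde-12) to 15 (rde-8) of 30, so sharing of small RNA reads touched all 9 genes. In the RefSeq gene table (WBcel235) mut-2 overlaps bli-4, a proprotein convertase gene, and with no strand setting stated, reads from the overlap cannot be told apart.

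The first question the design asks is what mut-16(pk710) does in each deletion background. For mRNA the answer differed between backgrounds. In eri-6[e-f] the mRNA of mut-7 and rde-12 rose, which is 2 of 9 genes higher where 16.2% of all features were called higher, and 0 of 9 were lower where 9.48% were. In sosi-1, mut-16 mRNA itself fell, which is 1 of 9 lower beside 3.24% of all features, and 0 of 9 rose beside 10.4%. In the double deletion, mut-16, mut-7, rrf-1 and rde-12 rose, 4 of 9 beside 28.1%, and mut-14 fell, 1 of 9 beside 22.1%. For the counts of 0, 2 genes had an unadjusted p below 0.05 in eri-6[e-f], both higher, and 3 in sosi-1, all lower, and DESeq2 gave the same counts of calls. The median log2 fold change of the 9 genes was 0.09 in eri-6[e-f], -0.38 in sosi-1 and 0.57 in the double deletion, beside 0.06, 0.04 and 0.09 over all features. Scaling by library size alone moved the last of these medians over all features to 0.64. It changed the split of calls there from 4318 higher and 3401 lower to 6160 higher and 1577 lower. In bulk RNA of whole animals, fewer cells of a type and less RNA per cell cannot be told apart.

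Markers of the germline moved in the same comparisons. The summed level of 17 oocyte and eggshell markers lay between 4359 and 6106 CPM in eri-6[e-f] and between 9262 and 17757 with mut-16 added. It ran from 10759 to 16223 in sosi-1 and from 5057 to 8745 with mut-16, and from 7036 to 9772 in the double deletion and from 13887 to 15449 with mut-16. No marker of that list was at 0 in any mRNA library. In the 3 backgrounds in that order, 11, 0 and 8 of the 17 rose and 0, 5 and 1 fell. Sperm markers, in contrast, rose in all 3 backgrounds (16, 16 and 17 of 18) and none fell. Their summed level with mut-16 reached 378.6 CPM at most. Of 10 muscle markers, 6 fell in eri-6[e-f], 0 in sosi-1 and 8 in the double deletion. The summed level of 9 embryo markers, 5 of which could be tested, lay between 3849 and 6058 CPM in the double deletion, between 1860 and 1964 with mut-16 added, and at 2734 or less in every library of the other 6 strains. The part of these tissue differences in the results on the 9 genes was not tested.

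Among the scaffold and its partners, mut-16 showed the least uniform response. Its mRNA was at 67.7, 60.7 and 68.4 CPM in the sosi-1 libraries and at 14.1, 20.2 and 15.7 with mut-16(pk710). No overlap was seen, every library with the mutation being below all others. It fell by 1.98 ± 0.32 on the log2 scale (SE, n = 3 per strain; adjusted p = 6.08e-05). The double deletion went the other way, from 24.6, 25.5 and 18.6 CPM to 49.5, 45.1 and 48.4 with the mutation. Again the groups did not overlap, and the log2 fold change was 1.06 ± 0.31 (adjusted p = 0.00434). In eri-6[e-f] the values were 28.6, 27 and 30.2 without it and 34.5, 20.2 and 16.2 with it. There the groups overlapped and the test was not passed (-0.28 ± 0.31, adjusted p = 0.492). The test of the difference between the 3 effects, an interaction term in the same model, gave a spread of 3.03 from the highest to the lowest effect (adjusted p = 2.46e-05).

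The mRNA of mut-15 and rde-2, whose products join the scaffold, was called in none of the 3 backgrounds. For mut-15 the CPM in the eri-6[e-f] libraries was 20.3, 14.1 and 51.5, and with mut-16(pk710) 47.1, 27.8 and 42.1. Replicate 3 of eri-6[e-f] was above all 3 mutants, the other two below them, and the test was not passed (0.44 ± 0.30). Without that replicate the value was 1.18 (adjusted p = 0.000475), a call that rests on leaving out 1 library. In the other backgrounds mut-15 did not pass either, at -0.59 ± 0.30 in sosi-1 and -0.25 ± 0.30 in the double deletion. For rde-2 the 3 effects were -0.01 ± 0.24, -0.63 ± 0.24 and 0.57 ± 0.24. The last had an adjusted p of 0.0401 but was below 2-fold, and the 3 libraries with mut-16 in that background, at 56.8, 57.1 and 54.9 CPM, all lay above the 3 without it, at 37.5, 41.2 and 35.2. With libraries scaled by size alone the value was 1.13 and was called (adjusted p = 0.00131). The 3 effects on rde-2 differed (spread 1.19, adjusted p = 0.0132), while for mut-15 the test of a difference was not passed (spread 1.03, adjusted p = 0.0934). The latter was passed without replicate 3 of eri-6[e-f] (spread 1.76, adjusted p = 0.00012) and without replicate 2 of the same strain with mut-16 (spread 1.23, adjusted p = 0.0416).

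The exonuclease gene mut-7 rose in the backgrounds that lack eri-6[e-f]. Its mRNA was at 21, 18.6 and 62.5 CPM in eri-6[e-f] and at 119.3, 46.3 and 57.8 with mut-16. The groups overlapped, replicate 3 of eri-6[e-f] being higher than 2 of the mutant libraries, and the log2 fold change was 1.13 ± 0.38 (adjusted p = 0.0184). That call depends on single libraries: it was lost without replicate 1 (0.88) or 2 (0.81) of eri-6[e-f], without replicate 1 of the strain with mut-16 (0.62), and in a fit of these 2 strains alone (1.07, adjusted p = 0.132). The change was firmer in the double deletion, from 57.3, 55.7 and 34.7 CPM to 124, 128 and 111 with mut-16. Every mutant library was above every other, and the log2 fold change was 1.29 ± 0.37 (adjusted p = 0.00361). In sosi-1 the levels were 82.4, 102.5 and 117 CPM without and 39.2, 62.5 and 53.7 with mut-16. These groups did not overlap, but the value, -0.95 ± 0.37, did not pass the test (adjusted p = 0.0626). The effects differed between backgrounds, with a spread of 2.25 (adjusted p = 0.001).

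The helicase gene rde-12 followed a similar course. It rose from 68.6, 67.1 and 96.6 CPM in eri-6[e-f] to 329, 153 and 173 with mut-16. All mutant libraries were above the others, and the log2 fold change was 1.5 ± 0.27 (adjusted p = 0.000144). Its level in the double deletion went from 116, 118.8 and 74.2 CPM to 304, 306 and 282. Here too all mutant libraries were above all others (1.53 ± 0.27, adjusted p = 2.23e-05). In sosi-1 the CPM was 176.5, 203 and 231 without and 148, 215 and 165 with mut-16, overlapping groups with a value of -0.21 ± 0.26. The effects differed (spread 1.74, adjusted p = 0.000345). Across the 24 mRNA libraries, log2 CPM of mut-7 and rde-12 correlated with a Pearson r of 0.90, a description only, since the libraries share strains and scaling.

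The other helicase gene, mut-14, was the only one of the 9 that fell in the double deletion past the threshold. Its mRNA in that strain was at 148, 153 and 121 CPM, the highest of the 8 strains, and with mut-16 at 60.4, 65.2 and 59.3. All mutant libraries were below the others, and the log2 fold change was -1.19 ± 0.25 (adjusted p = 0.000179). Scaled by library size alone, the value was -0.63 and no longer at least 2-fold. In eri-6[e-f] the libraries were at 65.0, 40.5 and 98.3 CPM, and with mut-16 at 81.3, 46.7 and 88.9, so that the groups overlapped fully (0.09 ± 0.25). In sosi-1 the value was -0.31 ± 0.25. The effects differed (spread 1.28, adjusted p = 0.00815), though with libraries scaled by size alone the spread was 0.82 (adjusted p = 0.178) and without replicate 2 of eri-6[e-f] it was 0.87. The embryo markers, like mut-14, were highest in the double deletion and lower with mut-16 there, and their part in the result was not tested. Its close relative smut-1, a helicase gene that acts redundantly with mut-14, had mRNA effects of -0.03, -0.36 and -0.03 in the 3 backgrounds and was called in none.

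The polymerase gene rrf-1 had the widest range of all 9 at the mRNA level, 5.2-fold between the highest and the lowest strain mean. Its level in the double deletion was 14.6, 16.3 and 15.6 CPM, and with mut-16 it was 73.7, 92.7 and 75.3. The groups were far apart, and the log2 fold change was 2.38 ± 0.40 (adjusted p = 1.08e-05). In eri-6[e-f] the CPM was 33.5, 24.1 and 58.4 without and 53.8, 21.2 and 40.7 with mut-16, and in sosi-1 63.3, 45.4 and 54.2 without and 37.1, 43.5 and 44.4 with it. In neither did the test pass (-0.01 ± 0.38 and -0.38 ± 0.38), and the test of the difference gave a spread of 2.76 (adjusted p = 0.000225). The related germline polymerase gene ego-1 had effects of -0.11 ± 0.38, -0.55 ± 0.37 and 2.24 ± 0.39 in the same order, with the last one called (adjusted p = 1.93e-05). The counts do not name the feature that shares reads with rrf-1. Whether it is ego-1 was not tested, so the values of these genes may not be independent.

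The genes of the enzymes that cut and tail the template, rde-8 and mut-2, were called for mRNA in none of the 3 backgrounds. rde-8 was at 84.6, 87.7 and 91.0 CPM in the double deletion and at 61.7, 64.7 and 62.5 with mut-16. Without overlap, and with an adjusted p of 0.0177, the change was still below 2-fold at -0.48 ± 0.17. Scaled by library size alone, its sign there turned to 0.09. For mut-2 the same strains gave 59.3, 62.1 and 65.1 CPM against 89.3, 91.7 and 92.2 with mut-16. Here too the groups were apart at less than 2-fold (0.55 ± 0.20, adjusted p = 0.0185), and with libraries scaled by size alone the value was 1.12 and was called. Under that scaling the 3 effects on mut-2 also differed (spread 1.25, adjusted p = 0.00833). In eri-6[e-f] and sosi-1 the values of both genes lay between -0.28 and 0.24 and did not pass. The interaction was passed by 6 of the 9 genes in all, beside 60.1% of all features, so the share of these genes is near the background.

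**Figure D1:**
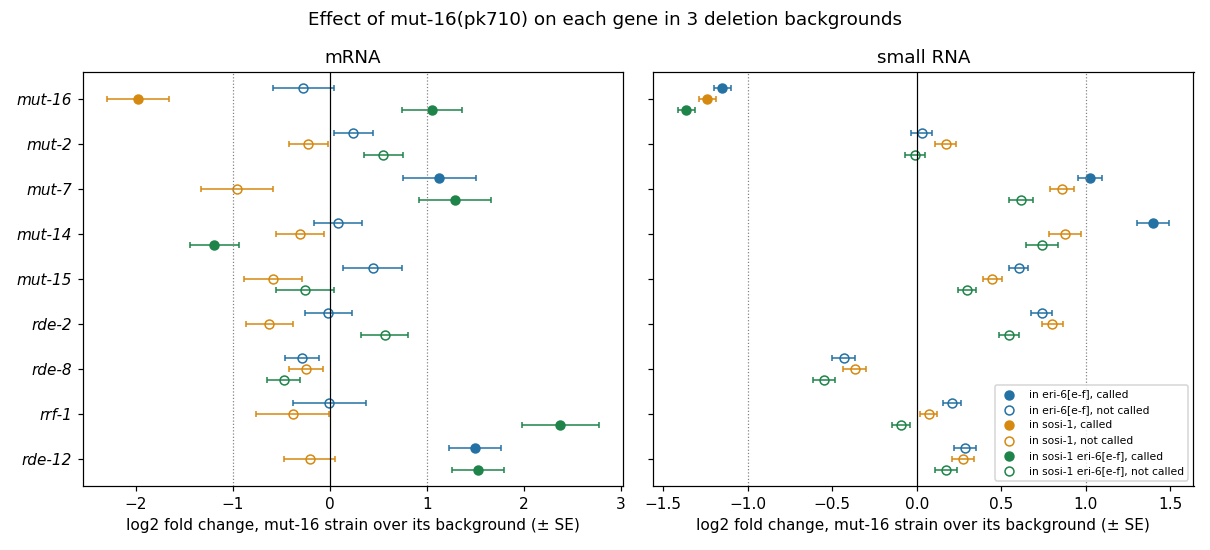
Log2 fold change between each strain with mut-16(pk710) and the same deletion strain without it, for mRNA (left) and small RNA (right), with bars for the SE and dotted lines at 2-fold. Filled points passed the test and the 2-fold limit. In mRNA the 3 backgrounds spread apart for mut-16, mut-7, rrf-1 and rde-12, and in small RNA the spread between backgrounds is at most 0.65, for mut-14.

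Small RNAs assigned to the 9 genes had effects that spread over at most 0.65 between the 3 backgrounds, beside 0.24 to 3.03 in mRNA, and the difference between the assays was not tested. Those of mut-16 fell in each. At an adjusted p below 0.05, though mostly below 2-fold, those of rde-8 were lower and those of mut-7, mut-14, mut-15, rde-2 and rde-12 higher in each background. Such a p was reached by 8, 8 and 7 of the 9 genes, beside 82.1%, 85.1% and 82.1% of all features, a share near the background. The counts do not separate 22G-RNAs from other small RNAs or one strand from the other. In eri-6[e-f], 2 of 9 genes were higher (14.4% of all features) and 1 of 9 lower (40.8%). In sosi-1, 0 of 9 were higher (13.9%) and 1 of 9 lower (41.8%). In the double deletion, 0 of 9 were higher (12.3%) and 1 of 9 lower (38.8%). The counts of 0 come from the 2-fold limit: 8, 8 and 7 of the 9 genes had an unadjusted p below 0.05 in the 3 backgrounds, and DESeq2 gave the same counts of calls. The median of the 9 genes was 0.29, 0.27 and 0.17 on the log2 scale, beside -0.41, -0.37 and -0.25 over all features. Scaled to microRNA counts, the medians over all features were -1.60, -1.37 and -1.67, and calls went from 2222 higher and 6272 lower to 376 and 7817 in eri-6[e-f], from 2141 and 6436 to 241 and 7389 in sosi-1, and from 1895 and 5964 to 832 and 8302 in the double deletion. Each rise given in the next paragraphs is a rise relative to the other features, given with its value or sign under that scaling.

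The small RNAs of mut-16, the mutated gene, were the only ones called lower in all 3 backgrounds on the TMM scale. In eri-6[e-f] they were at 212, 203 and 206 CPM, and with mut-16(pk710) at 96.8, 94.1 and 89.0. In sosi-1 they went from 224, 216 and 199 CPM to 90.2, 87.4 and 93.1, and in the double deletion from 222, 229 and 224 to 86.8, 86.4 and 89.0. All 9 libraries with the mutation lay between 86.4 and 96.8 CPM and all 9 without it at 198.8 or more. The log2 fold changes were -1.15 ± 0.05, -1.24 ± 0.05 and -1.36 ± 0.05, with adjusted p-values of 3.17e-15, 5.93e-16 and 1.05e-16. None of the alternatives run ended these 3 calls. The mRNA of mut-16 fell in only 1 of these backgrounds, so the level of its small RNAs and that of its mRNA did not follow the same course over the 6 strains.

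Among the partners of the scaffold, small RNAs of mut-15 and rde-2 were moderately higher. For mut-15 the 9 libraries with mut-16(pk710) lay between 251 and 289 CPM and the 9 without it between 179.5 and 208.5. For rde-2 they lay between 205 and 232 with and between 122 and 150.3 without. The ranges did not overlap for either gene. The effects were 0.60, 0.45 and 0.30 for mut-15 and 0.74, 0.80 and 0.55 for rde-2 in eri-6[e-f], sosi-1 and the double deletion, all with adjusted p below 0.05 and below 2-fold. Under scaling to microRNA counts every one of these 6 values was negative.

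The small RNAs of mut-7 and mut-14 rose most. For mut-14 the eri-6[e-f] libraries had 374, 360 and 368 CPM, and with mut-16 951, 991 and 958. The groups were far apart (1.40 ± 0.10, adjusted p = 6.35e-12), but scaled to microRNA counts the value was 0.20 (adjusted p = 0.801). In sosi-1 the libraries had 539, 510.1 and 365 CPM, replicate 3 standing below the others, and 855, 898 and 848 with mut-16. This was 0.88 ± 0.09, and 1.02 scaled by library size alone. The CPM of the double deletion went from 514, 506 and 513 to 858, 859 and 849 (0.74 ± 0.09). The groups did not overlap in either background, and scaled to microRNA counts the values were -0.15 and -0.69. For mut-7 the eri-6[e-f] libraries had 389, 381 and 391 CPM and those with mut-16 had 753, 831 and 774. This was called at 1.02 ± 0.07 (adjusted p = 7.88e-12), so close to the limit of 1 that it was 0.92 without the filter on low counts, 0.97 in a fit of the 2 strains alone, and between 0.96 and 0.99 when replicate 1 or 3 of eri-6[e-f] or replicate 2 of the strain with mut-16 was left out. In the other backgrounds the mut-7 effect was 0.86 ± 0.07 and 0.62 ± 0.07, and scaled to microRNA counts the 3 values were -0.17, -0.17 and -0.81. smut-1 small RNAs moved the other way from those of its relative, by -0.99 ± 0.05, -0.91 ± 0.05 and -1.16 ± 0.05, with the last one called.

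The small RNAs of rrf-1 and rde-12 were nearly level. For rrf-1 the 9 libraries with mut-16 lay between 367 and 418 CPM and the 9 without it between 326 and 404.5, overlapping ranges. Its effects were 0.21 ± 0.05, 0.07 ± 0.05 and -0.09 ± 0.05, the first with an adjusted p of 0.000899. They were -0.98, -0.95 and -1.52 when scaled to microRNA counts, the last one called. For rde-12 the ranges were 506 to 586 CPM with and 394 to 488 without the mutation, which do not overlap, and the effects were 0.29 ± 0.07, 0.27 ± 0.07 and 0.17 ± 0.06. All rde-12 values were negative under scaling to microRNA counts. The 2.38 rise of rrf-1 mRNA in the double deletion thus stood beside a change of -0.09 in its small RNAs.

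On the TMM scale, the small RNAs of rde-8 were the only ones besides those of mut-16 that were lower in every background at an adjusted p below 0.05. Scaled to microRNA counts, other genes were lower in every background as well, as given above for mut-7, mut-15, rde-2, rrf-1 and rde-12. The 9 libraries with mut-16 lay between 25.5 and 30.4 CPM and the 9 without it between 34.7 and 41.4. The ranges do not overlap, and the effects were -0.43 ± 0.07, -0.37 ± 0.07 and -0.55 ± 0.07 (adjusted p = 4.52e-06, 2.64e-05 and 1.05e-07), below 2-fold each. Scaled to microRNA counts they were -1.63, -1.38 and -1.97 and past the limit. For mut-2 the ranges overlapped, at 45.3 to 53.8 CPM with and 42.8 to 52.8 without mut-16, and the effects were 0.03, 0.17 and -0.01. Scaled to microRNA counts these were -1.17, -0.84 and -1.44, the last one called. The interaction test called 0 of the 9 genes in small RNA, beside 9.58% of all features. An unadjusted p below 0.05 was reached by 6, an adjusted p below 0.05 by mut-7, mut-14, mut-15 and rrf-1, and the spread between effects was at most 0.65. Over all features 23.9% had an adjusted p below 0.05 in this test. DESeq2 called 0 as well.

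**Figure D2:**
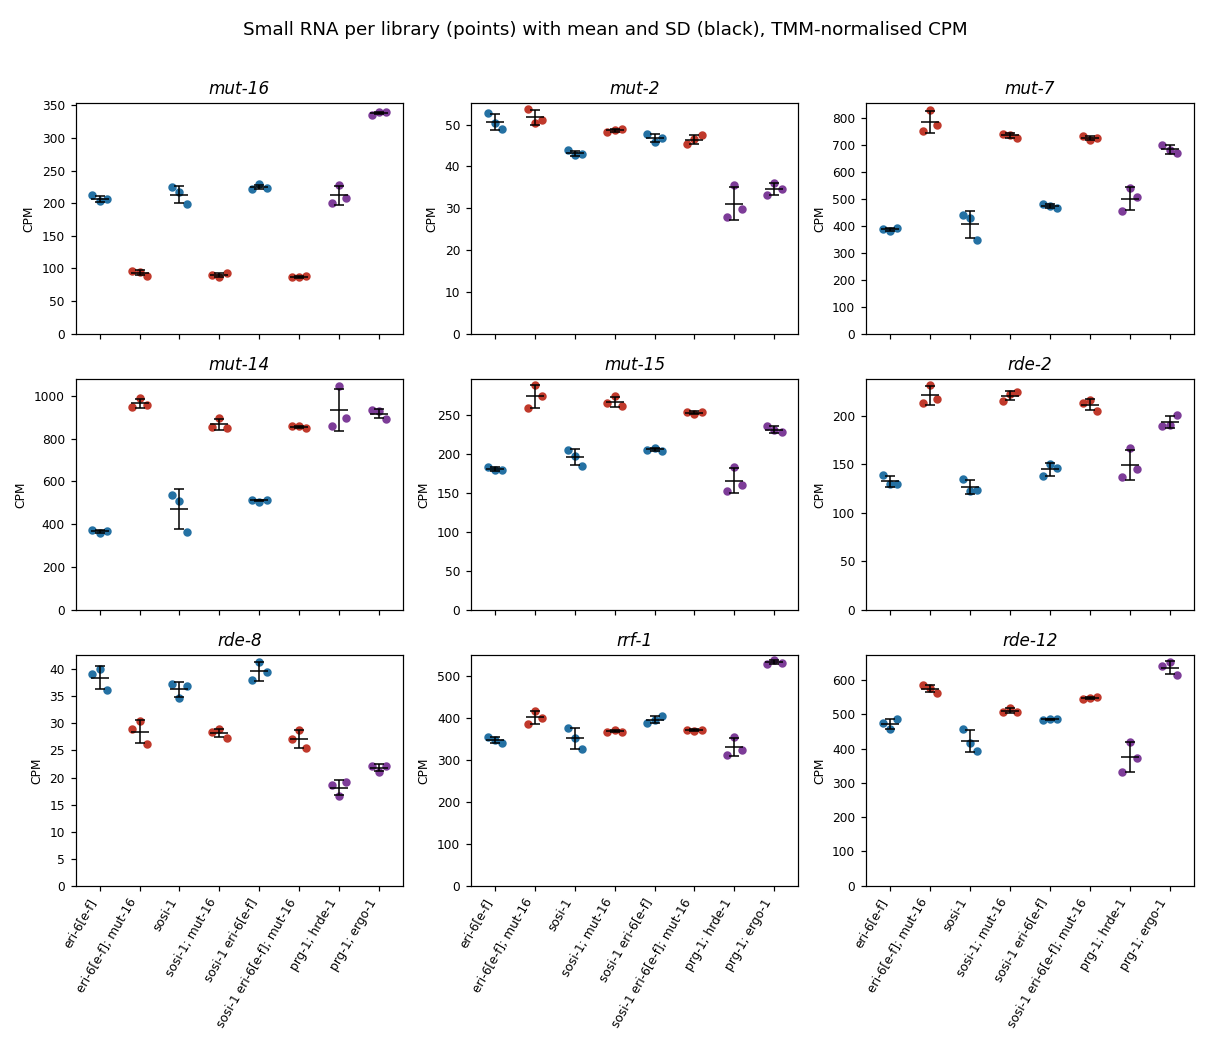
Small RNAs assigned to the 9 genes in CPM (linear axis from 0) in each library of the 8 strains, with 3 points per strain and black bars for the mean and SD, coloured as in the mRNA plot. mut-16 is lowest in all 3 strains with mut-16(pk710), mut-14 is high in those and in the prg-1 double mutants, and rde-8 is lowest in the prg-1 double mutants.

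A list of other genes needed for 22G-RNA amplification, compiled with these data known, held 16 genes that were tested. With mut-16 in the eri-6[e-f] background, mRNA of 5 rose (beside 16.2% of all features) and of 0 fell (9.48%). In sosi-1 none of the 16 was called (10.4% higher and 3.24% lower), and in the double deletion mRNA of 9 rose (28.1%) and of 1 fell (22.1%). Their medians were 0.56, -0.48 and 1.48, beside 0.06, 0.04 and 0.09 over all features. Called in more than 1 of these backgrounds were rde-10 (1.53 ± 0.28 and 1.92 ± 0.28), whose product forms a complex with RDE-11 in RNAi, rsd-2 (1.12 ± 0.30 and 2.36 ± 0.30), needed for systemic RNAi, and simr-1 (1.23 ± 0.27 and 1.21 ± 0.26), a Tudor domain gene whose protein sits beside the mutator foci. All 3 were called in eri-6[e-f] and the double deletion and had values of -0.90, -0.66 and -0.58 in sosi-1. In small RNA, 2, 0 and 0 of the 16 were higher, beside 14.4%, 13.9% and 12.3% of all features, and 2, 2 and 3 lower, beside 40.8%, 41.8% and 38.8%. Those of the polymerase gene rrf-2 fell by 6.08, 5.54 and 5.63 on the log2 scale, from strain means of 154 to 168 CPM to between 2.61 and 3.39. Those of rde-11 fell by 1.83, 1.71 and 2.00.

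The second question is how the deletion strains differ among themselves without mut-16(pk710). In sosi-1 against eri-6[e-f], mRNA of 3 of 9 genes was higher where 20.2% of all features were, and 0 of 9 lower where 13.3% were. These were mut-16 (1.20 ± 0.31), mut-7 (1.56 ± 0.38) and rde-12 (1.39 ± 0.27), from the libraries given above. For mut-16 and rde-12 the groups did not overlap, with all sosi-1 libraries higher, and for mut-7 the lowest sosi-1 library (82.4 CPM) was above the highest of eri-6[e-f] (62.5). An unadjusted p below 0.05 was reached by 5 genes, and leaving out replicate 3 of eri-6[e-f] added mut-15 (1.44). Of the 17 oocyte markers, 12 were higher and 0 lower in the same comparison. Their part in it was not tested.

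In the double deletion against sosi-1, mut-14 mRNA was higher, 1 of 9 beside 17% of all features, and mut-16, mut-7 and rrf-1 were lower, 3 of 9 beside 24.7%. The values were 1.15 ± 0.25 for mut-14, -1.52 ± 0.31 for mut-16, -1.03 ± 0.37 for mut-7 and -1.81 ± 0.39 for rrf-1. The groups did not overlap for any of these 4. For mut-7 the value was at the limit, at -1.0 and just short of it by DESeq2 and with RLE size factors, at -0.98 in a fit of the 2 strains alone, -0.90 without replicate 3 of sosi-1 and -0.85 without replicate 3 of the double deletion. The value of mut-14 was 0.58 with libraries scaled by size alone and 1.0, just under the limit, without replicate 1 of sosi-1. rde-12, at -0.98 ± 0.27, lay just short of the limit and passed it without replicate 1 of sosi-1 (-1.07), without replicate 1 (-1.07) or 2 (-1.09) of the double deletion, and with libraries scaled by size alone (-1.55). That scaling moved the median of all features from -0.17 to -0.75 and the calls from 2620 higher and 3795 lower to 897 and 6282. Against eri-6[e-f], the same strain had 2 of 9 genes higher, mut-14 (1.05 ± 0.25) and mut-15 (1.02 ± 0.30), beside 8.72%, and 1 of 9 lower, rrf-1 (-1.32 ± 0.39), beside 10.4%. For mut-14 and rrf-1 the groups did not overlap, and for mut-15 they did, since replicate 3 of eri-6[e-f] (51.5 CPM) was above replicate 3 of the double deletion (42.6). Both higher calls ended in a fit of the 2 strains alone (0.91 and 0.86) and with libraries scaled by size alone (0.77 and 0.73). For mut-15 leaving out replicate 1 or 2 of either strain took the value to between 0.74 and 0.97, for mut-14 leaving out replicate 2 of eri-6[e-f] (0.81) or of the double deletion (1.0) ended the call, and for rrf-1 leaving out replicate 3 of eri-6[e-f] did (-0.89), while mut-7 was called without that library (1.32). These 3 comparisons share strains and are not independent.

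In small RNA none of the 9 genes was called between these strains, where 7.45% of features were called between sosi-1 and eri-6[e-f], 9.43% between the double deletion and sosi-1 and 1.21% between the double deletion and eri-6[e-f]. By edgeR, 4, 4 and 5 genes had an unadjusted p below 0.05, and DESeq2 called 0 in each. An adjusted p below 0.05 by edgeR was reached by 2, 4 and 4 genes, beside 18%, 29.1% and 10% of features. The values lay between -0.23 (mut-2, sosi-1 against eri-6[e-f]) and 0.48 (mut-14, the double deletion against eri-6[e-f]).

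The same strains were also compared with mut-16(pk710) in all of them. In mRNA, the double deletion with mut-16 exceeded sosi-1 with mut-16 for mut-16 itself (1.52 ± 0.32) and mut-7 (1.22 ± 0.37), 2 of 9 higher beside 8.67% of all features and 0 of 9 lower beside 12%. The groups did not overlap for either gene, and the call on mut-7 was lost without replicate 1 of sosi-1 with mut-16 (1.06, adjusted p = 0.0679). In the same comparison 10 of the 17 oocyte markers were higher and 0 lower, and their part in it was not tested. Against eri-6[e-f] with mut-16, 2 of 9 were higher beside 6.13%, and 0 of 9 lower beside 5.86%. These were mut-16 (1.01 ± 0.31) and rrf-1 (1.06 ± 0.38), with no overlap between groups for either. Leaving out single libraries ended both calls in most cases. mut-16 gave 0.88 to 1.0 without replicate 2 or 3 of the eri-6[e-f] strain or replicate 1 or 3 of the double deletion strain, and rrf-1 gave 0.77 to 1.19 without any of these or replicate 2 of the latter. Without replicate 1 of the eri-6[e-f] strain mut-7 was called as well (1.22). Between sosi-1 and eri-6[e-f], both with mut-16, edgeR and DESeq2 called 0 of 9 beside 9.44%, with 2 genes at an unadjusted p below 0.05. In small RNA 0 of 9 were called in any of the 3 comparisons, beside 0.923%, 6.76% and 7.57% of features, with 0, 3 and 2 genes at an unadjusted p below 0.05, and all 27 values lay between -0.18 and 0.10.

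**Figure D3:**
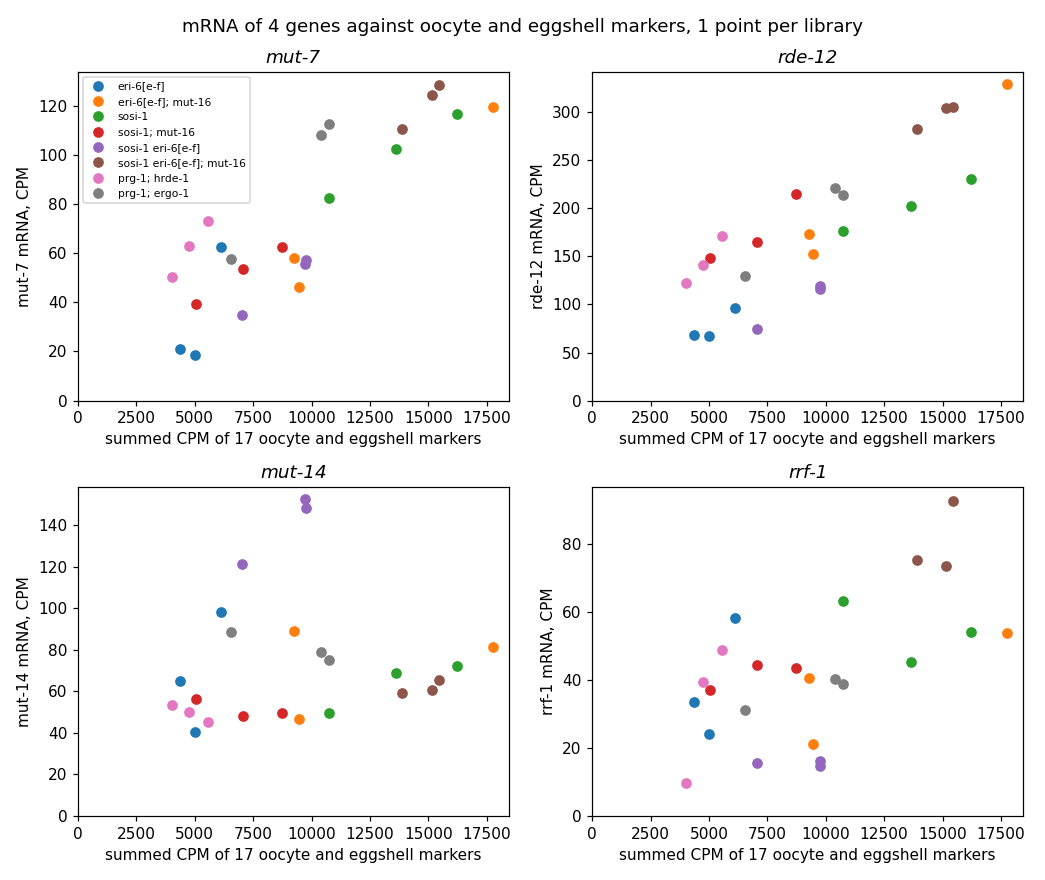
mRNA of mut-7, rde-12, mut-14 and rrf-1 in each of 24 libraries against the summed CPM of 17 oocyte and eggshell markers in the same library, both on linear axes from 0, coloured by strain. mut-7 and rde-12 tend to be high where the markers are high, at up to 128 and 329 CPM, but not in every strain. By strain mean, prg-1; hrde-1 has lower markers than the double deletion (4779.6 against 8847.6 CPM). Yet it has more mut-7 (62.0 against 49.2) and more rde-12 (145.2 against 103.0). The mut-14 libraries of the double deletion stand at 121 to 153 CPM with marker levels of 7036 to 9772.

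The third set of strains carries mutations in Argonautes: PRG-1 binds piRNAs, ERGO-1 binds 26G-RNAs, and HRDE-1 is a nuclear Argonaute of the germline that binds 22G-RNAs. In mRNA, prg-1; ergo-1 exceeded prg-1; hrde-1 for 2 of 9 genes, beside 4.66% of all features, and 0 of 9 were lower, beside 24.4%. These were mut-2 and rde-8. All 9 values were positive, beside 45.2% of all features, with a median of 0.62. mut-2 was at 33.5, 32.0 and 26 CPM in prg-1; hrde-1 and at 66.0, 65.1 and 60.3 in prg-1; ergo-1, a log2 fold change of 1.06 ± 0.20 (adjusted p = 0.000158). rde-8 was at 25.3, 25.6 and 27.8 CPM against 53.0, 59.0 and 46.9 (1.02 ± 0.18, adjusted p = 5.22e-05). The groups did not overlap for either, and for both genes prg-1; hrde-1 was the lowest of the 8 strains. Both calls lie near the limit: with libraries scaled by size alone they were 0.74 and 0.70, mut-2 was 0.96 without replicate 3 of prg-1; hrde-1, and rde-8 was between 0.94 and 1.0 without replicate 1 or 2 of that strain or replicate 2 of prg-1; ergo-1. That scaling moved the median of all features from -0.16 to -0.47 and the calls from 717 higher and 3753 lower to 246 and 5136. rde-2 (0.93 ± 0.24) passed without replicate 1 of prg-1; hrde-1 (1.09) and in a fit of the 2 strains alone (1.05).

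Replicate 3 of prg-1; hrde-1 was the lowest library of its group for 6 of the 9 genes in mRNA, with rrf-1 at 9.63 CPM against 49 and 39.4 and mut-16 at 22.1 against 67.9 and 48.4. The share of all features lowest in it was not computed. In this comparison 10 of the 17 oocyte markers were higher and 0 lower in prg-1; ergo-1, and 12 of the 18 sperm markers were lower and 0 higher. All 6 yolk markers were higher, with a summed level of 6989 to 8431 CPM in prg-1; hrde-1 and of 29028 to 53902 in prg-1; ergo-1. The embryo markers summed to 879 to 1307 CPM and to 1991 to 2538. Their part in the result was not tested.

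In small RNA, no 2-fold difference was called between prg-1; hrde-1 and the ergo-1 double mutant for any of the 9 genes, beside 23.6% of all features, although 7 had an unadjusted p below 0.05. The same 7 had an adjusted p below 0.05, as did 52.8% of all features. DESeq2 called 0 too. The values were highest for rde-12 (0.76 ± 0.07), rrf-1 (0.69 ± 0.05) and mut-16 (0.67 ± 0.05), all higher in prg-1; ergo-1 with no overlap. These 3 were called when scaled to microRNA counts, at 1.80 (adjusted p = 0.0291), 1.77 (adjusted p = 0.0325) and 1.75 (adjusted p = 0.0341). That scaling moved the median of all features from -0.03 to 1.16 and the calls from 1031 higher and 2595 lower to 2586 and 289. Replicate 1 of prg-1; hrde-1 held 2.88% of its counts on microRNAs, against 0.163% and 0.202% in replicates 2 and 3. The part of that library in these shifts was not tested. mut-14 was at 860, 1045 and 897 CPM in prg-1; hrde-1 and at 933, 930 and 892 in prg-1; ergo-1 (-0.02 ± 0.09). On the TMM scale its level in these 6 libraries was thus as high as in the 9 libraries with mut-16(pk710), at 848 to 991 CPM. It was above the 360 to 539 of the 9 deletion libraries without it. By library size alone its means were 667.1 CPM in prg-1; hrde-1 and 686.2 in prg-1; ergo-1. These were below the 1016.5 to 1101.1 of the strains with mut-16(pk710) and above the 390.2 to 517.6 of the deletion strains. On the TMM scale rde-8 was lowest in the prg-1 double mutants: 16.5 to 22.2 CPM in the 6 libraries with prg-1(n4357), 25.5 to 30.4 in the 9 with mut-16(pk710) and 34.7 to 41.4 in the other 9. mut-2 small RNAs were also lowest with prg-1(n4357), at 27.9 to 36.1 CPM against 42.8 to 53.8 in the other 18 libraries. These strains differ at several loci, and no test of prg-1 can be had within this set.

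The single mutants were compared with each other, which changes both loci at once. In ergo-1 against prg-1, rde-8 small RNAs were higher, 1 of 9 beside 30.4% of all features, and 0 of 9 were lower beside 15.6%. The prg-1 libraries had 15.7, 16.6 and 18.1 CPM and the ergo-1 libraries 37.2, 39.6 and 35.2. The groups were well apart, with a log2 fold change of 1.15 ± 0.09 (adjusted p = 1.5e-07). mut-2 came next, at 28.0, 29.5 and 32.0 CPM against 48.5, 47.6 and 46.9 (0.67 ± 0.08, adjusted p = 4.16e-06), below 2-fold, and 1.1 scaled to microRNA counts. mut-15 was also higher in ergo-1 (0.35 ± 0.06). The other 6 genes were higher in prg-1, with values from -0.31 for mut-16 to -0.52 for mut-7. All 9 had an adjusted p below 0.05, as did 77.5% of all features. Scaled to microRNA counts, the small values of mut-16, rrf-1 and rde-12 turned to 0.11, 0.02 and 0.08, and scaled by library size alone that of mut-16 was 0.01. The growth temperature of these libraries is not assigned by the labels and cannot be told apart from the strain.

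Placing the double mutants on one scale with the single mutants gave the same order for rde-8. Its small RNAs were at 16.6, 16.1 and 16.9 CPM in prg-1; ergo-1, at 15.8, 16.8 and 18.4 in prg-1 and at 35.6, 38.9 and 34.8 in ergo-1. The double mutant overlapped prg-1 and lay below every ergo-1 library. It was called against ergo-1 (-1.14 ± 0.09, adjusted p = 1.98e-07), 1 of 9 lower beside 27.6% of features and 0 of 9 higher beside 17.5%. Under scaling to microRNA counts the value was -1.30, no smaller, but its adjusted p was 0.346. The spread in that fit also takes in replicate 1 of prg-1; hrde-1, whose microRNA share stood apart, and its part in that p was not tested. Against prg-1, 0 of 9 were called beside 12.5% of features, with 6 at an unadjusted p below 0.05, and rde-8 had -0.04 ± 0.10. An adjusted p below 0.05 was reached by 5 of the 9 there, beside 35.7% of features. mut-14 small RNAs in prg-1; ergo-1, at 698, 707 and 681 CPM, exceeded both singles, at 574, 570.0 and 553 in prg-1 (0.30 ± 0.05) and 377, 407 and 398 in ergo-1 (0.82 ± 0.05), with no overlap and below 2-fold. In prg-1; hrde-1 against prg-1, edgeR called 0 of 9 beside 31.6%, with 8 at an unadjusted p below 0.05, and DESeq2 called 0 in this and the comparison with prg-1 above. The same 8 had an adjusted p below 0.05 by edgeR, as did 63.1% of features. The strongest was rde-12, at 275, 312 and 290 CPM against 553, 545 and 599 in prg-1 (-0.95 ± 0.06), which passed 2-fold without replicate 2 of prg-1; hrde-1 (-1.01). The double and the single mutants come from separate sets of libraries with different harvest times, so the set and the genotype cannot be told apart in these 3 comparisons. Their libraries also overlap between comparisons. For prg-1; ergo-1 small RNA, replicate 3 is marked as mRNA selected in one label and was kept as small RNA. Leaving it out changed no call.

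**Figure D4:**
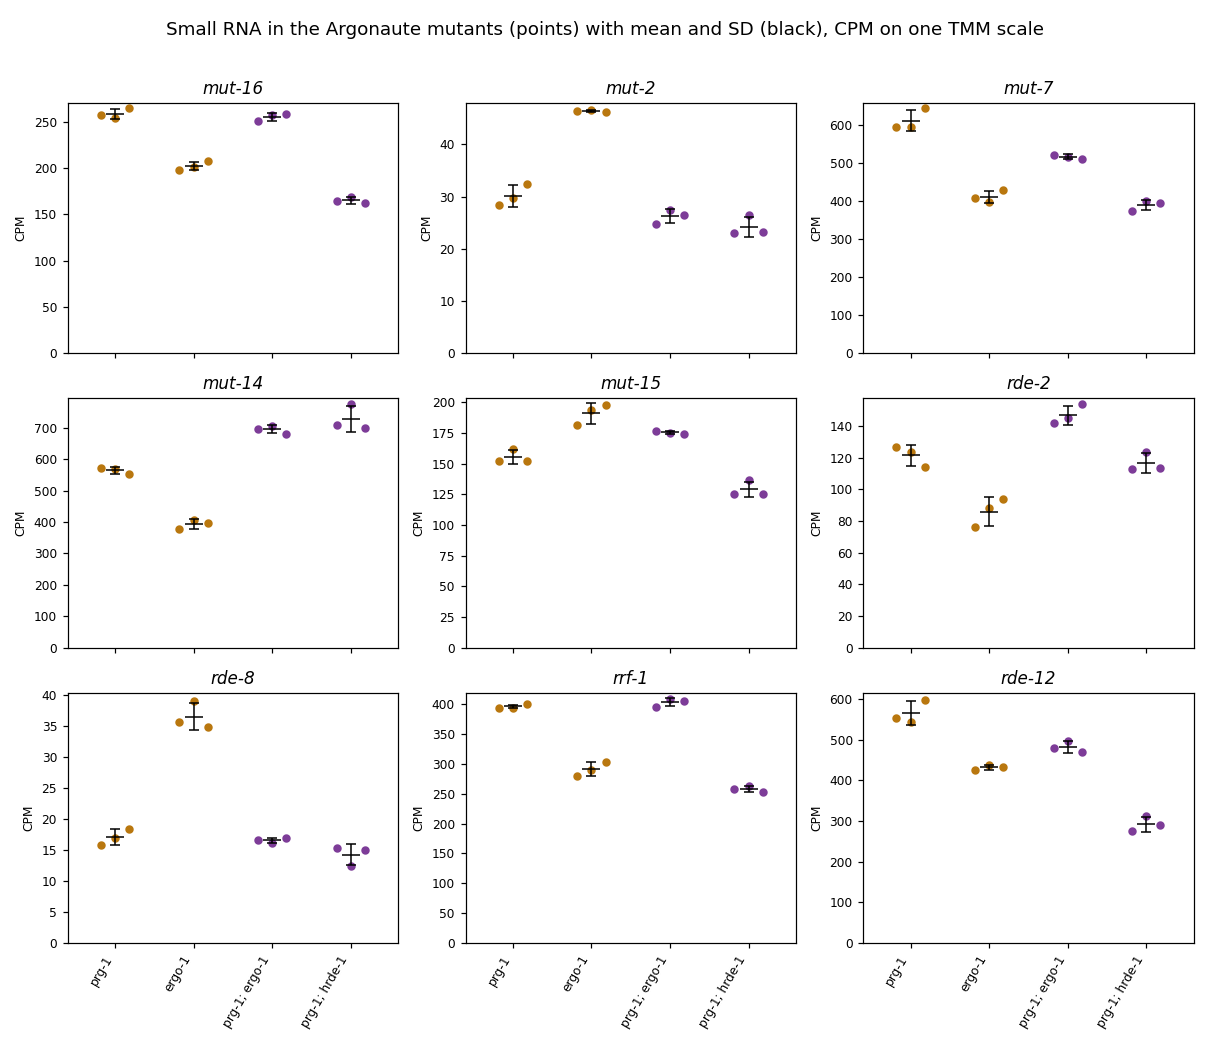
Small RNAs assigned to the 9 genes in the prg-1 and ergo-1 single mutants (orange) and the prg-1 double mutants with ergo-1 or hrde-1 (purple), in CPM on one scale, with 3 points per strain and black bars for the mean and SD. rde-8 and mut-2 are high in ergo-1 alone, and mut-14 is higher in both double mutants than in either single.

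Over all 8 strains, the order of mRNA levels ran differently from gene to gene. The fold between the highest and the lowest strain mean was 5.2 for rrf-1, 3.94 for mut-16, 3.84 for rde-12, 3.56 for mut-7, 3.35 for rde-8, 2.99 for mut-2, 2.84 for mut-14, 2.16 for rde-2 and 2.04 for mut-15. rrf-1, rde-12, mut-7, mut-2 and rde-2 were highest in the double deletion with mut-16, while rde-8 and mut-14 were highest in the double deletion without it, mut-16 in sosi-1 and mut-15 in prg-1; ergo-1. By library size alone, rde-8 was instead highest in eri-6[e-f], at a mean of 69.7 CPM against 62.6 in the double deletion. The means of mut-2 in prg-1; hrde-1 and in the double deletion were then 41.1 and 44.3. Of the 63 pairs of neighbours in the orders on the TMM scale, 53 had overlapping ranges. The share over all features was not computed. Gaps stood above prg-1; hrde-1 for mut-2 and rde-8 at the low end and below the highest strain for rrf-1, mut-14 and rde-2, and mut-16 and mut-7 had no gap anywhere. In small RNA the folds were 3.87 for mut-16, 2.63 for mut-14, 2.19 for rde-8 and 2.03 for mut-7, and at most 1.75 for the others. Here 38 of 63 neighbouring pairs overlapped, again with no share over all features computed. For mut-16, mut-14 and rde-8 the strains fell into blocks without overlap between them: for mut-16 the 3 strains with the mutation were lowest and prg-1; ergo-1 highest (mean 338 CPM), for mut-14 the 3 deletion strains alone were lowest, and for rde-8 they were highest, followed by those with mut-16(pk710), prg-1; ergo-1 (21.8 CPM) and prg-1; hrde-1 (18.1 CPM). Such blocks were not particular to these genes. For mut-7, mut-15 and rde-2 the strains with mut-16(pk710) were highest and prg-1; ergo-1 next, each without overlap with the strains below. For rde-12 prg-1; ergo-1 was highest and the strains with mut-16(pk710) came next, again without overlap.

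Features whose log2 CPM ran most like that of each gene over the 24 libraries were named by the highest Pearson r among the 7535 other mRNA features with a mean of at least 10 CPM, or among 6926 in small RNA. In mRNA the closest to mut-16 was C28A5.2 (r = 0.942), to mut-2 kup-1 (0.968), to mut-7 lotr-1 (0.995), to mut-14 T22D1.5 (0.977) and to mut-15 K07H8.2 (0.988). For rde-2 it was T02E1.2 (0.968), for rde-8 W02F12.4 (0.99), for rrf-1 aman-2 (0.98) and for rde-12 smg-8 (0.98). Such likeness was common for some genes: 17.3% of the candidates had an r over 0.8 with mut-7 and 17.5% with rde-12, against 0.319% with mut-16. In small RNA the closest were Y55F3BR.2 to mut-16 (0.996), mct-1 to mut-2 (0.972), mdt-15 to mut-7 (0.995), znfx-1 to mut-14 (0.996) and rde-1 to mut-15 (0.977). The rest were evl-14 to rde-2 (0.992), ztf-17 to rde-8 (0.981), hrde-4 to rrf-1 (0.961) and vps-54 to rde-12 (0.95). Of these, znfx-1 and rde-1 encode a helicase of germ granules and an Argonaute of exogenous RNAi. Likeness was common for some genes in small RNA as well. There the share of candidates with an r over 0.8 ran from 0.578% with rrf-1 to 42.4% with rde-2. It was 30.5% with mut-14 and 22.9% with mut-15, so being like these genes was not particular to znfx-1 and rde-1. All points share the strains, so these values describe the 24 libraries only.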

How the data were processed

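Per the labels' protocols, small RNAs were selected by size on a gel, mRNA on oligo(dT) beads, and both were sequenced as single reads of 75 nt. The authors deposited 1 table per library with expected counts (estimated read counts that need not be whole) per gene name, not normalised. Per the submitters' processing notes the tools were cutadapt, HISAT2 and Salmon, with no versions. The genome build, annotation and strand setting: not given in the sources used here. Counts of repeated names were summed and rounded. In R 4.3.3, edgeR 4.0.16 removed low features (filterByExpr by strain), scaled libraries by TMM and fitted quasi-likelihood models with 1 term per strain to the 24 mRNA libraries (15376 features tested), the 24 small RNA libraries of the same strains (15380), the 6 single mutant libraries (11746) and these with the prg-1 double mutants (12964). There were 26 comparisons, 11 of mRNA and 15 of small RNA. The SE is the log2 fold change over the square root of F, and for the interaction the highest minus the lowest effect is given. Alternatives were DESeq2 1.42.0, RLE size factors, library size alone, scaling to microRNA counts, no filter, fits of the compared strains alone, a replicate block, and each library left out. The fits were tested on simulated data.

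The genes and the lists were chosen with earlier results of these data known. Of the symbols on the lists, 160 of 163 matched a name. The rule for named genes takes all 9 genes, the list genes called in at least 2 of 3 mut-16 comparisons of an assay, the feature most like each gene, and ego-1 and smut-1. Reads per length, planned from protein lengths, could not be had for want of those lengths. Same-numbered libraries were taken as paired where r was over 0.1 in every pair, which held (r from 0.152 to 0.277) in only 1 comparison, the mRNA effect of mut-16 in the double deletion, and the block changed no call on the 9 genes there.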

Additional observations from a re-analysis of the deposited data

Results flagged for a closer look

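Of the 9 genes, 6 had mRNA effects of mut-16(pk710) that differed between the 3 deletion backgrounds, tested with an interaction term in edgeR and adjusted over all features. The difference between the highest and the lowest of the 3 log2 effects was 3.03 for mut-16 (adjusted p = 2.46e-05), 2.76 for rrf-1 (adjusted p = 0.000225) and 2.25 for mut-7 (adjusted p = 0.001). It was 1.74 for rde-12 (adjusted p = 0.000345), 1.28 for mut-14 (adjusted p = 0.00815) and 1.19 for rde-2 (adjusted p = 0.0132). For mut-16, mut-7 and rde-12 the lowest effect was in sosi-1, for rrf-1 and rde-2 as well, and for mut-14 in the double deletion. Over all features 60.1% passed the same test. Oocyte and germline markers were among those that passed (15 of 17 and 14 of 16), and their part in the differences was not tested.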

How the results depend on the processing

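The mRNA results rest on few libraries of uneven spread, and many calls lie near 2-fold, so single libraries move them. Small RNA values were tight, but the sign of many depends on the scale. With libraries scaled by size alone, 117 strain means of the 9 genes moved by at least their SD among libraries, and 45 did not. The number of called genes among the 9 moved by more than 1.5 times under some alternatives. In a fit of the 2 strains alone it was 1 in mRNA both for the mut-16 effect in eri-6[e-f] (2 in the main model) and for the double deletion against eri-6[e-f] (3). With libraries scaled by size alone it was 1 for the latter, 0 for mRNA of prg-1; ergo-1 against prg-1; hrde-1 (2), and in small RNA 2 for the mut-16 effect in sosi-1 (1) and 2 for prg-1; ergo-1 against ergo-1 (1). Scaled to microRNA counts, the small RNA calls numbered 2 for the mut-16 effect in sosi-1 (1), 4 for that in the double deletion (1), 3 for prg-1; ergo-1 against prg-1; hrde-1 (0), 2 for ergo-1 against prg-1 (1) and 0 for prg-1; ergo-1 against ergo-1 (1). The cause of these shifts was not tested. With each library left out in turn, calls in mRNA ranged from 1 to 3 for the mut-16 effect in eri-6[e-f], from 1 to 3 for the double deletion against eri-6[e-f], from 1 to 2 for the double deletion against sosi-1 with mut-16 in both, from 0 to 3 for the double deletion against eri-6[e-f] with mut-16 in both, and from 1 to 2 for prg-1; ergo-1 against prg-1; hrde-1. In small RNA they ranged from 0 to 1 for prg-1; hrde-1 against prg-1.

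Signs of effects with an adjusted p below 0.05 turned as follows. Scaled by library size, rde-8 mRNA gave 0.09 for the mut-16 effect in the double deletion, mut-16 small RNA 0.01 in ergo-1 against prg-1, and rde-12 small RNA -0.05 in prg-1; ergo-1 against ergo-1. Scaled to microRNA counts, the mut-16 effect in eri-6[e-f] was -0.17 for mut-7, -0.59 for mut-15, -0.45 for rde-2, -0.98 for rrf-1 and -0.91 for rde-12. In sosi-1 it was -0.84 for mut-2, -0.17 for mut-7, -0.15 for mut-14, -0.57 for mut-15, -0.21 for rde-2 and -0.75 for rde-12. In the double deletion it was -0.81 for mut-7, -0.69 for mut-14, -1.13 for mut-15, -0.88 for rde-2 and -1.26 for rde-12. Under that scaling mut-14 was -0.12 in sosi-1 against eri-6[e-f]. In ergo-1 against prg-1, mut-16 was 0.11, rrf-1 0.02 and rde-12 0.08. In prg-1; ergo-1 against prg-1, mut-7 was 0.07 and rde-12 0.08, and in prg-1; hrde-1 against prg-1 mut-14 was -0.43. MicroRNAs held 0.0625% to 2.88% of the counts of a library. The highest share was in replicate 1 of prg-1; hrde-1. That library entered every small RNA fit but that of the single mutants. Its part in the adjusted p-values under scaling to microRNA counts was not tested.

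A replicate block, which pairs libraries by number, gave the same number of calls in each of the 26 comparisons, for example 5 for the mRNA effect of mut-16 in the double deletion, and changed none of 234 calls on single genes. In the other comparisons the libraries share only a number, with r between -0.737 and 0.548. For mRNA of sosi-1 against eri-6[e-f] each library correlated best with its own number (r of 0.307, 0.091 and 0.496), a hint from the data and not from the design.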
